A study of Homo sapiens with 12 samples.

Results

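MCF10CA1a, the metastatic line of the MCF10 breast epithelial series, was compared with MCF10A, the non-tumorigenic line from which the series descends. The comparison rested on 6 of the 12 libraries of the study, 3 of MCF10CA1a and 3 of MCF10A, which the authors had reduced to 1 mean TPM (a length-scaled relative abundance whose values sum to 1000000 in each column) per gene and line. Genes with a mean of at least 1 TPM in either line entered, which was the case for 12747 of the 59427 gene symbols in the table. At the edge of that filter, IL11RA entered with 1.00 TPM in MCF10CA1a and 0.893 TPM in MCF10A, and DENND6B did not, with 0.474 TPM in MCF10CA1a and 0.9997 TPM in MCF10A. Total RNA was sequenced with a stranded kit, and every line was grown in the same medium, which held horse serum, human insulin, recombinant EGF, cholera toxin and hydrocortisone.

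The MCF10 series is used as a model in which 1 genetic background passes through stages of breast cancer. MCF10A cells are immortalised but not transformed, and MCF10AT1 cells carry an activated HRAS. MCF10DCIS and MCF10CA1a are HRAS-derived lines as well. MCF10DCIS cells stand for ductal carcinoma in situ, and MCF10CA1a cells form invasive and metastatic tumours. HRAS is a small GTPase that passes signals from growth factor receptors to the ERK kinases, and ERK signalling induces growth factor ligands, cytokines, proteases and its own inhibitors. Each stage is a single cell line, so differences that come with HRAS, with the stage or with the history of a line cannot be told apart.

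The values are means, so no difference below carries an error or a p-value, and whether a difference exceeds the spread between libraries of a line is unknown. TPM keeps no number of reads, so the depth is unknown. The rule of size used in place of a test called a gene higher or lower in MCF10CA1a when log2(TPM + 1) differed by at least 1 between the lines, and a gene's difference on that scale understates the change of low genes. By this rule 783 of 12747 genes (6.14%) were higher and 936 (7.34%) lower, and these shares are the background for the counts within gene lists. The lists were chosen with earlier results of these data known. A contrast of a list with this background is therefore a description and not independent support. The median difference of all genes was -0.082. Structural and small non-coding RNAs held 59.8% of the TPM in MCF10CA1a and 57.6% in MCF10A. After rescaling the TPM without them and without mitochondrially encoded and ribosomal protein RNAs, 1189 of 12578 genes (9.45%) were higher and 992 (7.89%) lower, with a median of 0.043. Rescaling raises the remaining TPM of both lines against the unchanged pseudocount of 1, so low genes can pass the rule more readily. On both scales 773 genes were higher and 847 lower, and 0 genes were past the rule in opposite directions. The medians of the scales lie close together, so opposite calls were nearly impossible from the outset. Counts within lists are from the TPM as deposited unless stated.

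HRAS itself was at 312 TPM in MCF10CA1a, against 50.8 TPM in MCF10A, a log2 difference of 2.59. Reads of the introduced and of the endogenous gene are not separated in the table. All 12 breast epithelial markers entered, of which TP63, ITGB4 and KRT17 (3 genes) were higher and CDH1, KRT19, KRT5 and KRT14 (4 genes) lower. Their sums, 3705 TPM in MCF10CA1a and 3605 TPM in MCF10A, hide these opposite differences. Of the markers of other cell types, 3 of 12 for fibroblasts entered, 1 of 8 for endothelium, 4 of 11 for leukocytes, 1 of 5 for adipocytes and 0 of 7 for melanocytes and neural cells. The leukocyte markers summed to 16.2 TPM in MCF10CA1a and 69.5 TPM in MCF10A, while the genes of that list CD3D, MS4A1 and CD53 were listed at 0 in both lines. The fibroblast markers summed to 4.60 TPM in MCF10CA1a and 18.2 TPM in MCF10A, and LUM was listed at 0 in both. Of the 3 that entered, COL1A1 was higher (difference 1.10), FAP was lower (-2.63) and COL6A3 (-0.995) was just short of the rule. Of the leukocyte sums, CORO1A alone, a gene on chromosome 16, held 8.90 TPM in MCF10CA1a and 37.0 TPM in MCF10A. Each culture is a single breast epithelial line. In bulk RNA, marker RNA made by the epithelial cells themselves and RNA of other cells cannot be told apart. The part of such cells in the results was not tested.

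**Figure D1:**
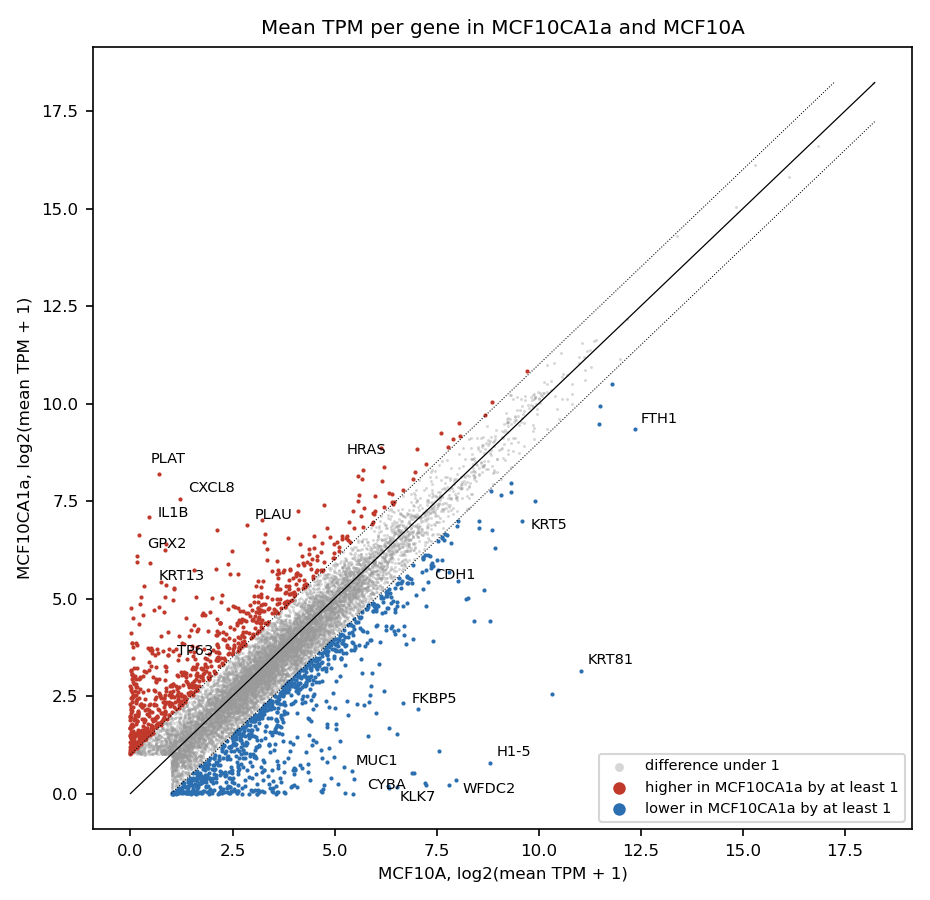
Mean TPM of each of the 12747 genes, as log2(TPM + 1), in MCF10CA1a (vertical axis) and MCF10A (horizontal axis); the solid line marks equal levels and the dotted lines a difference of 1. PLAT, IL1B and CXCL8 lie at the upper left and H1-5, WFDC2 and KLK7 at the lower right, while most genes lie between the dotted lines.

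Differences of larger size were fewer, with more genes lower than higher at each size on the deposited scale. A log2 difference of at least 2 was reached by 188 genes upward and 217 downward, of at least 3 by 60 and 94, of at least 4 by 27 and 33, and of at least 5 by 9 and 17. Just past the rule lay the cyclin gene CCND1, at 172 TPM in MCF10CA1a and 85.3 TPM in MCF10A (difference 1.00). SUN2, which encodes a protein of the inner nuclear membrane, lay just past it downward, at 27.4 TPM in MCF10CA1a and 55.8 TPM in MCF10A. YWHAZ, at 268 TPM in MCF10CA1a and 536 TPM in MCF10A, fell just short of it. Of 11379 protein-coding genes 682 were higher and 853 lower, and of 807 long non-coding RNA genes 68 were higher and 47 lower.

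Interleukin-1 and the neutrophil-attracting chemokines were among the genes with the largest upward differences. IL-1 alpha and beta act through the receptor IL1R1 and its partner IL1RAP to activate NF-kB, a family of transcription factors that induces chemokines and further cytokines. Of 17 genes of the IL-1 family, 11 entered, 5 of them were higher and 1 lower, and the median difference was 0.92, or 0.091 over all 17. IL1B was at 135 TPM in MCF10CA1a, against 0.382 TPM in MCF10A. It stood at 2.51 TPM in MCF10AT1 and 9.44 TPM in MCF10DCIS, so the MCF10CA1a level was the highest of the 4 lines. IL1A was at 75.4 TPM in MCF10CA1a, against 0.813 TPM in MCF10A. The receptor partner IL1RAP was at 16.3 TPM in MCF10CA1a, against 3.49 TPM in MCF10A.

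The signalling receptor and the antagonist did not share this direction. IL1R1 was counted as lower, at 0.325 TPM in MCF10CA1a and 2.82 TPM in MCF10A. IL1RN, the secreted antagonist of IL-1, was at 2.87 TPM in MCF10CA1a and 6.33 TPM in MCF10A, a difference of -0.92 that did not reach the rule. IL18, a related cytokine, was similar at 81.4 TPM in MCF10CA1a and 74.5 TPM in MCF10A. The alarmin gene IL33 was at 2.20 TPM in MCF10CA1a and listed at 0 in MCF10A. Its receptor gene IL1RL1 was at 2.29 TPM in MCF10CA1a and 0.0164 TPM in MCF10A. IL1A and IL1B lie close together on chromosome 2, IL1A at chr2:112773915-112784590 and IL1B at chr2:112829751-112836903, both on the minus strand of GRCh38.

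Of 17 chemokine genes, 7 entered, 5 of them were higher and 1 lower, and the median difference was 2.06. Over all 17 it was 0.052. The filter can favour genes that are high in only 1 of the lines. For many lists the median over the genes that entered is therefore set beside that over all listed genes. CXCL8, the main attractant of neutrophils, was at 188 TPM in MCF10CA1a and 1.31 TPM in MCF10A. CXCL1, which acts on the same receptor family, was at 31.6 TPM in MCF10CA1a and 2.06 TPM in MCF10A. CXCL2 was at 9.83 TPM in MCF10CA1a and 1.61 TPM in MCF10A. These genes share 1 cluster on chromosome 4 with CXCL3, which was at 6.67 TPM in MCF10CA1a and 0.622 TPM in MCF10A. CCL20, an attractant of lymphocytes and dendritic cells encoded on chromosome 2, was at 8.11 TPM in MCF10CA1a and 1.86 TPM in MCF10A. CCL28, an epithelial chemokine, went the other way, at 1.13 TPM in MCF10CA1a and 3.73 TPM in MCF10A. CXCL16 was near equal, at 10.9 TPM in MCF10CA1a and 11.9 TPM in MCF10A.

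The promoters of the 5 chemokine genes counted as higher are shown because each holds a match to the same motif. The stretches are from RefSeq (GRCh38.p14), lie upstream of the start and are written 5′ to 3′ on the strand of the gene. Capitals mark matches, on either strand, to GGNNTTTCC, a common form of the site bound by NF-kB, and in CXCL8 also to TGANTCA, the site bound by AP-1.
CXCL8: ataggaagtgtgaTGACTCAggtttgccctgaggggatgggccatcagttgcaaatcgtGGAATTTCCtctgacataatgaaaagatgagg
CXCL1: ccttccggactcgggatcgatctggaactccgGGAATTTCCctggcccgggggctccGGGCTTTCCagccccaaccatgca
CXCL2: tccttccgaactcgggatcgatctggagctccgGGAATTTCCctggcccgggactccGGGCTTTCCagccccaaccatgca
CXCL3: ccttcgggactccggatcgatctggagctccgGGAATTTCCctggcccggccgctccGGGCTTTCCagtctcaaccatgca
CCL20: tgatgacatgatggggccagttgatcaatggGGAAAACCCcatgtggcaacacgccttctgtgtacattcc

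The stretch of CXCL8 lies at chr4:73740419-73740509 on the plus strand and that of CXCL1 at chr4:73869283-73869363 on the plus strand. Those of CXCL2 and CXCL3 lie at chr4:74099225-74099305 and chr4:74038719-74038799 on the minus strand, and that of CCL20 at chr2:227813732-227813802 on the plus strand. In the 250 bases upstream of the start, GGNNTTTCC occurred in 5 of these 5 promoters, against 5.48% of 27305 RefSeq promoters and 6.05% of the 9523 promoters of genes that entered. TGANTCA occurred in 1 of the 5, against 6.596% of all promoters and 3.85% of those of genes that entered. CXCL1, CXCL2 and CXCL3 each held the motif at a pair of positions, and CCL20 held it on the opposite strand. The letters of GGNNTTTCC were chosen after these sequences had been seen. CXCL1, CXCL2 and CXCL3 are closely similar genes, so their promoters and their reads are not independent, and a match is a description of the letters, not of binding. In the 5 IL-1 family members counted as higher, GGNNTTTCC had no match in this window, while IL1A and IL1RL1 held TGANTCA.

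Of 18 genes of other secreted cytokines 8 entered, with 5 higher, 1 lower and a median of 1.36, or 0.22 over all 18. LIF, a cytokine of the IL-6 family, was at 47.7 TPM in MCF10CA1a and 16.7 TPM in MCF10A. The granulocyte-macrophage factor gene CSF2 was at 3.38 TPM in MCF10CA1a and 0.0126 TPM in MCF10A. CSF1, which encodes the macrophage factor, was at 3.52 TPM in MCF10CA1a and 0.329 TPM in MCF10A. CLCF1, another IL-6 family ligand, was lower at 2.10 TPM in MCF10CA1a and 6.69 TPM in MCF10A. IL32, at 2.78 TPM in MCF10CA1a and 4.93 TPM in MCF10A, did not reach the rule.

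Of 16 genes of NF-kB subunits and feedback regulators that entered, 5 were higher, 1 lower and 10 past neither limit, with a median of 0.28, or 0.15 over all 18 listed. The subunit genes RELB, at 10.2 TPM in MCF10CA1a and 2.57 TPM in MCF10A, and NFKB2, at 30.7 TPM in MCF10CA1a and 10.1 TPM in MCF10A, both belong to the non-canonical branch of the pathway. TNFAIP3, which encodes the inhibitor A20, was at 8.43 TPM in MCF10CA1a and 0.839 TPM in MCF10A. Its binding partner gene TNIP1 was at 137 TPM in MCF10CA1a and 49.4 TPM in MCF10A. BIRC3, an inhibitor of apoptosis that NF-kB induces, was the member counted as lower, at 4.98 TPM in MCF10CA1a and 16.2 TPM in MCF10A. The cyclooxygenase gene PTGS2 was at 2.00 TPM in MCF10CA1a and 0.346 TPM in MCF10A, and of 11 genes of prostaglandin synthesis and response 2 were higher and 1 lower.

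**Figure D2:**
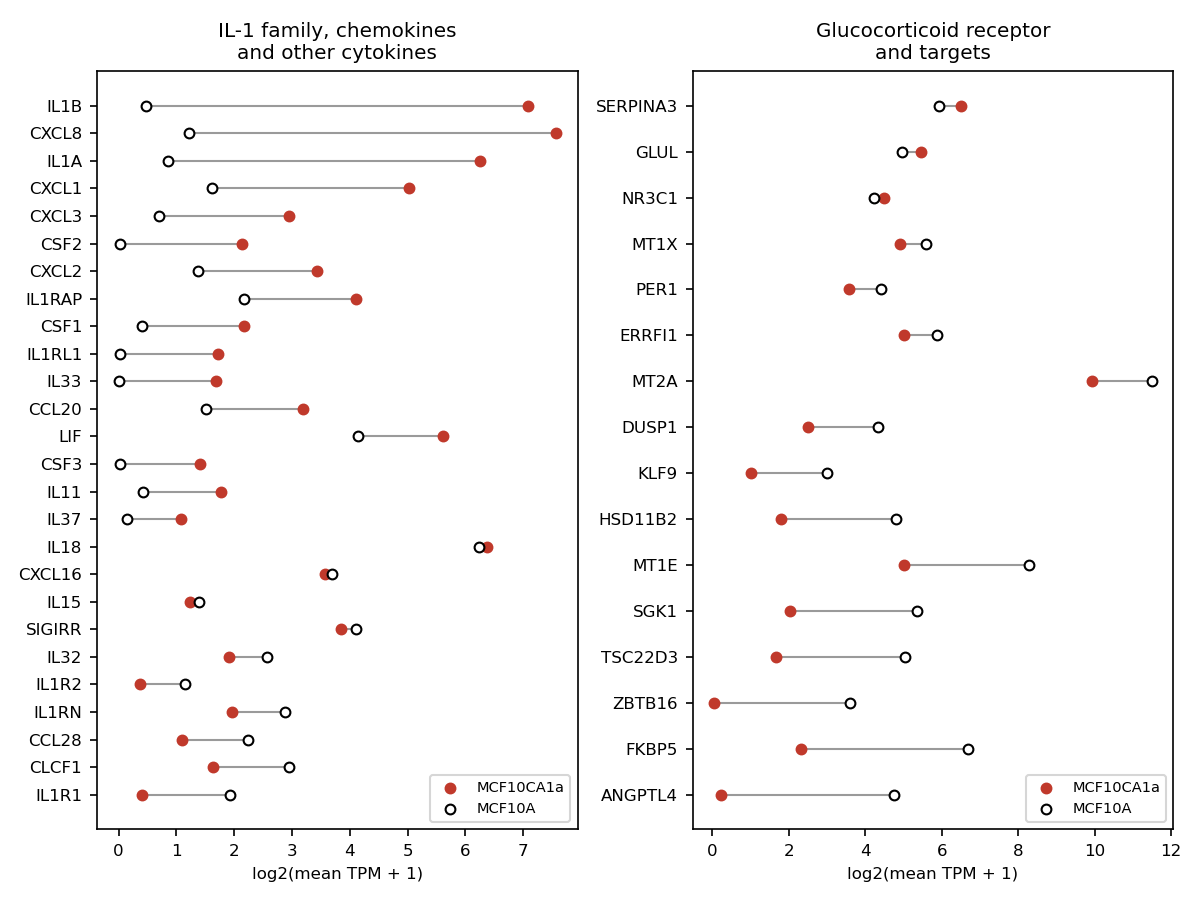
Mean log2(TPM + 1) of each gene that entered in MCF10CA1a (filled) and MCF10A (open), for IL-1 family, chemokine and other cytokine genes (left) and for the glucocorticoid receptor and its targets (right). IL1B, CXCL8 and IL1A show the longest upward spans, and 10 of the 16 genes on the right lie lower in MCF10CA1a by at least 1.

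Most measured targets of the glucocorticoid receptor were lower, and the receptor gene was not past the rule. The receptor, encoded by NR3C1, binds hydrocortisone, which was in the medium of all lines, and induces genes that restrain inflammation. Of 18 genes 16 entered, 0 were higher and 10 lower, and the median difference was -1.90, or -2.07 after rescaling. Over all 18 genes it was -1.69. NR3C1 was at 21.4 TPM in MCF10CA1a and 17.6 TPM in MCF10A, a difference of 0.26. FKBP5, a cochaperone of the receptor and a widely used marker of its activity, was at 4.002 TPM in MCF10CA1a and 102 TPM in MCF10A. It stood at 129 TPM in MCF10AT1 and 30.2 TPM in MCF10DCIS, so MCF10CA1a held the lowest level of the 4 lines. TSC22D3, which encodes the anti-inflammatory protein GILZ, was at 2.17 TPM in MCF10CA1a and 31.9 TPM in MCF10A.

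The kinase gene SGK1 was at 3.05 TPM in MCF10CA1a and 39.5 TPM in MCF10A. ZBTB16, a transcription factor gene, was at 0.0365 TPM in MCF10CA1a and 11.1 TPM in MCF10A. It remained at 13.2 TPM in MCF10AT1 and stood at 0.114 TPM in MCF10DCIS. ANGPTL4, an inhibitor of lipoprotein lipase, was at 0.173 TPM in MCF10CA1a and 25.7 TPM in MCF10A. The derived lines MCF10AT1 and MCF10DCIS held 68.4 and 57.9 TPM of ANGPTL4, so it was near absent in MCF10CA1a alone. DUSP1, a phosphatase that switches off MAP kinases, was at 4.68 TPM in MCF10CA1a and 19.0 TPM in MCF10A. The transcription factor gene KLF9 was at 1.01 TPM in MCF10CA1a and 7.02 TPM in MCF10A.

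HSD11B2, the enzyme that inactivates cortisol, was at 2.45 TPM in MCF10CA1a and 27.1 TPM in MCF10A. MT2A, a metal-binding metallothionein, was at 973 TPM in MCF10CA1a and 2877 TPM in MCF10A. MT1E was at 31.4 TPM in MCF10CA1a and 309 TPM in MCF10A; metallothionein genes are similar in sequence and their single values are uncertain. These last 3 of the 10 lower genes lie on chromosome 16, where genes were lower as a whole. SERPINA3, at 89.9 TPM in MCF10CA1a and 60.0 TPM in MCF10A, and GLUL, at 43.2 TPM in MCF10CA1a and 30.2 TPM in MCF10A, are also known targets and did not reach the rule in either direction. FKBP5 lies at chr6:35573585-35728583, minus strand, in GRCh38.

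The EGF receptor family and its ligands went both ways. Of 14 genes 10 entered, with 4 higher, 1 lower and a median of 0.37, or 0.47 over all 14. HBEGF was at 58.0 TPM in MCF10CA1a and 4.20 TPM in MCF10A. EREG was at 42.9 TPM in MCF10CA1a and 8.44 TPM in MCF10A. TGFA was at 76.0 TPM in MCF10CA1a and 19.9 TPM in MCF10A. These 3 genes encode ligands that bind EGFR, and NRG1, a ligand of its relatives, was at 11.2 TPM in MCF10CA1a and 3.50 TPM in MCF10A. EPGN, a further EGFR ligand, was lower at 3.90 TPM in MCF10CA1a and 45.7 TPM in MCF10A. AREG was the most abundant ligand gene in both lines, at 154 TPM in MCF10CA1a and 93.2 TPM in MCF10A, and its difference of 0.71 did not reach the rule. EGFR stood at 35.0 TPM in MCF10CA1a and 49.4 TPM in MCF10A, and ERBB2 at 28.98 TPM in MCF10CA1a and 28.65 TPM in MCF10A.

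Of 30 genes of ERK feedback and the immediate-early response 27 entered, 12 of them were higher, 2 lower and 13 past neither limit. Their median was 0.75, or 0.53 over all 30. The feedback phosphatase genes DUSP6, at 93.4 TPM in MCF10CA1a and 13.4 TPM in MCF10A, and DUSP5, at 26.1 TPM in MCF10CA1a and 5.24 TPM in MCF10A, were among them. IER3, an immediate-early gene, was at 202 TPM in MCF10CA1a and 47.4 TPM in MCF10A. FOSL1, an AP-1 subunit that is stable under sustained ERK activity, was at 63.9 TPM in MCF10CA1a and 20.99 TPM in MCF10A. MYC was at 110 TPM in MCF10CA1a and 43.5 TPM in MCF10A, and it lies on chromosome 8, where most genes were lower. The AP-1 subunit gene JUND was lower at 10.2 TPM in MCF10CA1a and 34.4 TPM in MCF10A, as was DUSP1.

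The plasminogen activator gene PLAT showed the largest upward difference in the comparison. Plasminogen activators cut plasminogen to plasmin, a protease that degrades fibrin and activates other proteases. Of 12 genes that entered, 3 were higher and 0 lower, with a median of 0.26. PLAT, the tissue-type activator, was at 294 TPM in MCF10CA1a and 0.619 TPM in MCF10A. It was intermediate in the other derived lines, at 10.9 TPM in MCF10AT1 and 113 TPM in MCF10DCIS. PLAU, the urokinase-type activator, was at 117 TPM in MCF10CA1a and 6.19 TPM in MCF10A. SERPINB2, an inhibitor of both activators, was at 42.2 TPM in MCF10CA1a and 0.678 TPM in MCF10A. PLAT lies at chr8:42175233-42207724, minus strand, in GRCh38.

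Matrix metalloproteinases and their inhibitors went both ways, with 4 of 15 higher, 3 lower and a median of -0.33, or -0.027 over all 28 listed. MMP28 was at 32.6 TPM in MCF10CA1a and 7.13 TPM in MCF10A. The inhibitor gene TIMP3 was at 50.4 TPM in MCF10CA1a and 12.4 TPM in MCF10A. The interstitial collagenase gene MMP1 was at 1.28 TPM in MCF10CA1a and listed at 0 in MCF10A. MMP7, which encodes matrilysin, was lower at 0.777 TPM in MCF10CA1a and 11.1 TPM in MCF10A, and the gelatinase gene MMP2 was lower at 0.875 TPM in MCF10CA1a and 5.76 TPM in MCF10A.

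Of 31 collagen and matricellular genes 20 entered, with 9 higher, 1 lower and a median of 0.98. Over all 31 the median was 0.058. SPARC, a collagen-binding glycoprotein of the matrix, was at 31.7 TPM in MCF10CA1a and 0.203 TPM in MCF10A. Its level was higher still in MCF10DCIS, at 92.9 TPM. COL12A1, a fibril-associated collagen, was at 37.6 TPM in MCF10CA1a and 1.11 TPM in MCF10A. COL16A1, of the same class, was at 24.1 TPM in MCF10CA1a and 0.767 TPM in MCF10A. The transmembrane collagen genes COL13A1, at 11.9 TPM in MCF10CA1a and 0.400 TPM in MCF10A, and COL17A1, at 91.2 TPM in MCF10CA1a and 35.2 TPM in MCF10A, were also higher. COL4A6, a basement membrane collagen, was lower at 0.929 TPM in MCF10CA1a and 7.09 TPM in MCF10A. Of the fibrillar collagens of fibroblasts, COL1A1 was counted as higher, with a difference of 1.10. COL3A1 was listed at 0 in MCF10CA1a and at 0.00695 TPM in MCF10A.

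Enzymes that fold and crosslink collagen showed 3 of 24 higher, 7 lower and a median of -0.28. FKBP10, a collagen chaperone, was at 67.7 TPM in MCF10CA1a and 0.122 TPM in MCF10A. Its neighbour on chromosome 17 is P3H4, a partner of the collagen prolyl and lysyl hydroxylases, which was at 31.1 TPM in MCF10CA1a and 3.02 TPM in MCF10A. The lysyl oxidase gene LOXL2 was lower at 15.9 TPM in MCF10CA1a and 87.8 TPM in MCF10A. The lysyl hydroxylase gene PLOD3 was lower at 42.9 TPM in MCF10CA1a and 99.7 TPM in MCF10A. Of the 7 lower genes, 4 lie on chromosomes 7, 8 and 16 (LOXL2, FKBP9, PLOD3 and BMP1).

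Among 14 integrin genes 4 were higher and 4 lower, and the higher ones were laminin receptors or their partners. ITGB4 was at 330 TPM in MCF10CA1a and 72.9 TPM in MCF10A. ITGA6, which pairs with ITGB4 in hemidesmosomes, was at 196 TPM in MCF10CA1a and 62.7 TPM in MCF10A. ITGA3 was at 220 TPM in MCF10CA1a and 102 TPM in MCF10A, and ITGA2, which also binds collagen, was at 44.8 TPM in MCF10CA1a and 11.3 TPM in MCF10A. Lower were receptors of fibronectin and of latent TGF-beta and the collagen receptor gene ITGA10. ITGB8 was at 9.95 TPM in MCF10CA1a and 48.8 TPM in MCF10A, ITGB6 at 31.2 TPM in MCF10CA1a and 69.8 TPM in MCF10A, and ITGA5 at 11.9 TPM in MCF10CA1a and 31.4 TPM in MCF10A. Of 8 laminin genes LAMA4 was higher, at 53.4 TPM in MCF10CA1a and 3.28 TPM in MCF10A, and LAMB2 was lower. The laminin chain genes LAMA3 and LAMB3 did not reach the rule, with differences of 0.20 and 0.97. HAS3, which makes the matrix sugar hyaluronan, was at 38.7 TPM in MCF10CA1a and 0.248 TPM in MCF10A.

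**Figure D3:**
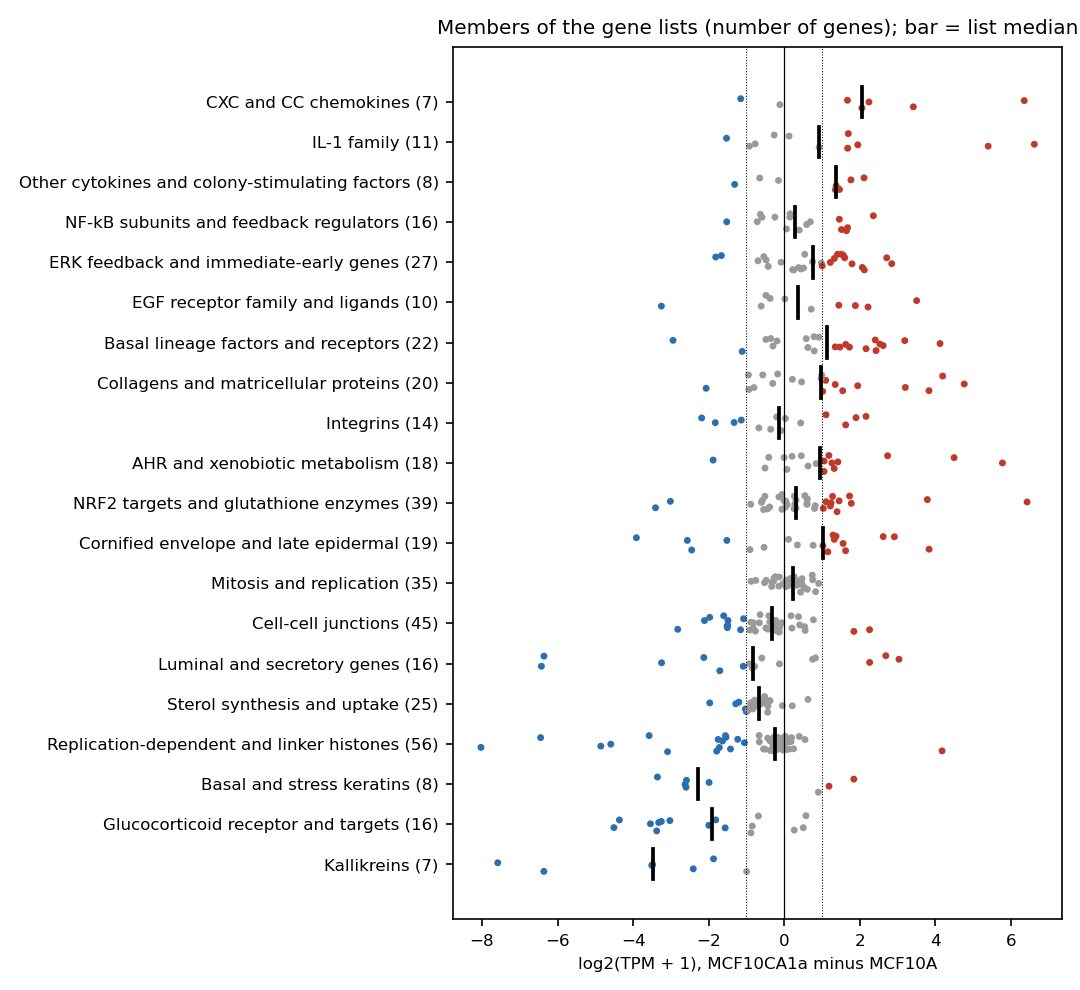
Difference in log2(TPM + 1), MCF10CA1a minus MCF10A, of each gene that entered in 20 gene lists (number of genes in parentheses), with the list median as a black bar and dotted lines at -1 and 1. Among the genes that entered, chemokines have a median of 2.06, kallikreins of -3.48 and glucocorticoid receptor targets of -1.90, and 0 of the 35 mitosis genes lie past the dotted lines.

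Antioxidant genes that the transcription factor NRF2 induces were higher in 11 of 39 cases and lower in 2, with a median of 0.31. NRF2, encoded by NFE2L2, is held in check by KEAP1. GPX2, a selenium-dependent glutathione peroxidase of epithelia, was at 97.9 TPM in MCF10CA1a and 0.150 TPM in MCF10A. The quinone reductase gene NQO1 was at 302 TPM in MCF10CA1a and 124 TPM in MCF10A. TXN, which encodes thioredoxin, was at 721 TPM in MCF10CA1a and 263 TPM in MCF10A. AKR1C1, an aldo-keto reductase with close paralogs, was at 127 TPM in MCF10CA1a and 8.29 TPM in MCF10A, so reads may be split between them. The cystine transporter gene SLC7A11 was at 7.49 TPM in MCF10CA1a and 1.56 TPM in MCF10A. NFE2L2 was at 25.9 TPM in MCF10CA1a and 21.1 TPM in MCF10A, and KEAP1 at 10.3 TPM in MCF10CA1a and 19.8 TPM in MCF10A, neither past the rule. FTH1, the ferritin heavy chain, was lower at 647 TPM in MCF10CA1a and 5236 TPM in MCF10A; it has many processed pseudogenes. The transporter gene ABCC2 was lower at 0.533 TPM in MCF10CA1a and 15.3 TPM in MCF10A.

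The promoter of GPX2 is shown because it was the 1 promoter of this list, of 8 found for its 11 higher members, that held the core of the antioxidant response element. The stretch is upstream of the start at chr14:64942825-64942905, on the minus strand (RefSeq, GRCh38.p14), and capitals mark the match to TGACNNNGC, which is read here on the opposite strand.
GPX2: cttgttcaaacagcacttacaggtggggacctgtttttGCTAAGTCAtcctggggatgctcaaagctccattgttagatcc

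TGACNNNGC occurred in the 250 upstream bases of 1 of the 8 promoters (12.5%), against 11.03% of all promoters and 12.3% of those of genes that entered. The share of the list was thus close to that of promoters in general. No match in this window says nothing of sites farther away.

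Of 26 genes of xenobiotic metabolism 18 entered, with 9 higher, 1 lower and a median of 0.95, or 0.33 over all 26. ALDH1A3, which makes retinoic acid from retinal, was at 466 TPM in MCF10CA1a and 69.1 TPM in MCF10A. ALDH3A1 was at 40.0 TPM in MCF10CA1a and 0.818 TPM in MCF10A, and MCF10AT1 held a like level of 40.7 TPM. UGT1A6 was at 60.7 TPM in MCF10CA1a and 0.127 TPM in MCF10A. Of the 9 higher genes 6 belong to the UGT1A locus, whose members share exons, so their single values are uncertain. CYP27B1, which activates vitamin D, was lower at 0.358 TPM in MCF10CA1a and 4.01 TPM in MCF10A. Of 8 NADPH oxidase genes 2 were higher and 2 lower, and both lower ones, CYBA and NOXO1, lie on chromosome 16. CYBA, the membrane subunit shared by several oxidases, was at 0.172 TPM in MCF10CA1a and 149 TPM in MCF10A. The other derived lines held little of it as well, at 0.140 TPM in MCF10AT1 and 0.258 TPM in MCF10DCIS.

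Keratins, the intermediate filaments of epithelia, went both ways. Of 8 basal and stress keratin genes 2 were higher and 5 lower, with a median of -2.29, or -0.98 over all 10 listed. KRT5 was at 126 TPM in MCF10CA1a and 768 TPM in MCF10A, and its filament partner KRT14 at 4.75 TPM in MCF10CA1a and 57.8 TPM in MCF10A. KRT6A was at 78.2 TPM in MCF10CA1a and 488 TPM in MCF10A. KRT6B, a near copy of it, went the other way, at 256 TPM in MCF10CA1a and 70.8 TPM in MCF10A. Reads shared between these copies make both values uncertain. KRT17 was higher at 1046 TPM in MCF10CA1a and 459 TPM in MCF10A. KRT13, a keratin of non-cornified stratified epithelia, was at 58.9 TPM in MCF10CA1a and 0.401 TPM in MCF10A. It stood at 0.374 TPM in MCF10AT1 and 0.366 TPM in MCF10DCIS, so of the 4 lines MCF10CA1a alone exceeded 1 TPM. Of 8 simple and stratified keratin genes that entered, KRT13 was higher and KRT19, KRT80 and KRT7 were lower. Their median was -0.59, or -0.025 over all 15 listed. KRT7 was at 1444 TPM in MCF10CA1a and 3531 TPM in MCF10A. KRT8 and KRT18 did not reach the rule, with differences of -0.51 and 0.35. The hair keratin gene KRT81 was at 7.87 TPM in MCF10CA1a and 2100.1 TPM in MCF10A.

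Genes of the cornified envelope, the protein shell of surface keratinocytes, were higher in 10 of 19 cases and lower in 4, with a median of 1.02. Over all 35 listed genes in the table the median was 0.11. CALML3, a calmodulin-like gene of keratinocytes, was at 13.5 TPM in MCF10CA1a and 0.0211 TPM in MCF10A. The envelope precursor genes SPRR2A, at 11.1 TPM in MCF10CA1a and 0.609 TPM in MCF10A, and SPRR2D, at 10.7 TPM in MCF10CA1a and 0.898 TPM in MCF10A, belong to a family of close copies. TGM1, the enzyme that crosslinks the envelope, was lower at 0.763 TPM in MCF10CA1a and 8.63 TPM in MCF10A. CASP14, a protease of the late epidermis, was lower at 0.118 TPM in MCF10CA1a and 15.8 TPM in MCF10A.

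Kallikreins, serine proteases that loosen contacts between keratinocytes, were lower in 6 of the 7 cases that entered and higher in 0, with a median of -3.48, or -0.089 over all 15. The 6 genes are neighbours on chromosome 19, from KLK5 to KLK10. KLK5 was at 179 TPM in MCF10CA1a and 953 TPM in MCF10A. KLK7 was at 0.172 TPM in MCF10CA1a and 223 TPM in MCF10A. KLK10 was at 14.1 TPM in MCF10CA1a and 168 TPM in MCF10A. Levels of KLK7 were also low in the other derived lines, at 8.27 TPM in MCF10AT1 and 0.122 TPM in MCF10DCIS. KLK1, the remaining member, was at 0.0144 TPM in MCF10CA1a and 1.02 TPM in MCF10A and was just short of the rule.

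Secreted defence proteins went both ways, with 4 of 13 higher, 5 lower and a median of -0.80, or -0.0081 over all 28 listed. LCN2, which binds bacterial siderophores, was at 150 TPM in MCF10CA1a and 16.1 TPM in MCF10A. PI3, which encodes the elastase inhibitor elafin, was at 269 TPM in MCF10CA1a and 50.2 TPM in MCF10A. The ribonuclease gene RNASE7 was at 6.30 TPM in MCF10CA1a and 0.0407 TPM in MCF10A. WFDC2, a protein with the same WAP fold as elafin, was lower at 0.261 TPM in MCF10CA1a and 252 TPM in MCF10A. AZGP1, a secreted glycoprotein, was lower at 1.86 TPM in MCF10CA1a and 91.9 TPM in MCF10A. The beta-defensin gene DEFB1 was lower at 1.48 TPM in MCF10CA1a and 13.997 TPM in MCF10A. Of 13 S100 genes, S100A9, a subunit of calprotectin, was higher at 62.5 TPM in MCF10CA1a and 9.19 TPM in MCF10A. S100A4, often used as a mesenchymal marker, was lower at 5.24 TPM in MCF10CA1a and 72.6 TPM in MCF10A.

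Of 33 regulators and receptors of basal epithelial cells 22 entered, with 11 higher, 2 lower and a median of 1.13. Over all 33 the median was 0.28. TP63, the transcription factor that maintains basal cells, was at 10.7 TPM in MCF10CA1a and 0.901 TPM in MCF10A. The basal keratin genes KRT5 and KRT14 did not share its direction. NGFR, a receptor for neurotrophins, was at 19.3 TPM in MCF10CA1a and 0.162 TPM in MCF10A. The Notch ligand gene JAG1 was at 86.7 TPM in MCF10CA1a and 8.62 TPM in MCF10A. NOTCH3, a receptor for it, was at 16.9 TPM in MCF10CA1a and 2.10 TPM in MCF10A. WNT7A was at 4.53 TPM in MCF10CA1a and 0.0255 TPM in MCF10A, and WNT7B at 19.2 TPM in MCF10CA1a and 5.09 TPM in MCF10A; both encode Wnt ligands. MME, a surface peptidase of myoepithelial cells, was lower at 0.0415 TPM in MCF10CA1a and 7.01 TPM in MCF10A.

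Luminal and secretory genes were lower in 6 of 16 cases and higher in 3, with a median of -0.82, or -0.0024 over all 35 listed. The mucin gene MUC1 was at 0.438 TPM in MCF10CA1a and 123 TPM in MCF10A. MUC1 stood at 55.1 TPM in MCF10AT1 and 11.2 TPM in MCF10DCIS. CD24 was at 30.6 TPM in MCF10CA1a and 299 TPM in MCF10A, and the transcription factor gene ELF3 at 50.1 TPM in MCF10CA1a and 222 TPM in MCF10A. The 3 higher genes were of the CEACAM family of adhesion proteins, which are similar in sequence. CEACAM1 was at 39.1 TPM in MCF10CA1a and 7.36 TPM in MCF10A, and CEACAM6 at 7.03 TPM in MCF10CA1a and 0.247 TPM in MCF10A.

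Of 45 cell junction genes 10 were lower and 2 higher, and the median was -0.32. CDH1, which encodes E-cadherin, was at 51.9 TPM in MCF10CA1a and 149 TPM in MCF10A. The desmosomal cadherin genes DSC2, at 7.52 TPM in MCF10CA1a and 59.1 TPM in MCF10A, and DSG3, at 18.8 TPM in MCF10CA1a and 84.5 TPM in MCF10A, were lower. CLDN1, a claudin of tight junctions, was higher at 51.6 TPM in MCF10CA1a and 10.0 TPM in MCF10A. CDH1 is 1 of 3 lower members that lie on chromosome 16. EPCAM was at 148 TPM in MCF10CA1a and 86.1 TPM in MCF10A and did not reach the rule. Of 15 mesenchymal genes and factors 3 were higher and 6 lower, with a median of -0.92, or -0.12 over all 26 listed. VIM was at 74.1 TPM in MCF10CA1a and 4.56 TPM in MCF10A, and AXL, a receptor kinase, at 76.7 TPM in MCF10CA1a and 9.18 TPM in MCF10A. The transcription factor gene TWIST1 was lower at 2.73 TPM in MCF10CA1a and 19.6 TPM in MCF10A. ZEB2, a repressor of CDH1, was at 0.0264 TPM in MCF10CA1a and 1.34 TPM in MCF10A. Of the 6 lower genes, 3 lie on chromosomes 7 and 16 (TWIST1, FOXC2 and MMP2).

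Members of the TGF-beta family differed in both directions, with 5 of 28 higher, 7 lower and a median of 0.33. The activin subunit gene INHBA was at 45.2 TPM in MCF10CA1a and 14.7 TPM in MCF10A. Its antagonist gene FST was at 38.4 TPM in MCF10CA1a and 8.13 TPM in MCF10A, while the related antagonist gene FSTL3 was lower at 7.46 TPM in MCF10CA1a and 49.7 TPM in MCF10A. BMP7 was at 4.42 TPM in MCF10CA1a and 0.0220 TPM in MCF10A. The receptor gene TGFBR2 was lower at 23.6 TPM in MCF10CA1a and 70.4 TPM in MCF10A, and the transducer gene SMAD3 higher at 36.9 TPM in MCF10CA1a and 13.8 TPM in MCF10A. WWTR1, which encodes the coactivator TAZ of the Hippo pathway, was at 82.7 TPM in MCF10CA1a and 16.9 TPM in MCF10A. Of 25 YAP/TAZ effectors and targets that entered, 3 were higher and 2 lower, with a median of 0.35.

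Interferon-stimulated genes were higher in 7 of 31 cases and lower in 3, with a median of 0.15. After rescaling 12 were higher and 2 lower, on a scale where 9.45% of all genes were higher and 7.89% lower. BST2, a membrane protein that tethers virions, was at 83.2 TPM in MCF10CA1a and 0.831 TPM in MCF10A. IFITM1, which blocks entry of viruses and has close paralogs, was at 22.9 TPM in MCF10CA1a and 0.233 TPM in MCF10A. ISG20, an exonuclease, was at 11.5 TPM in MCF10CA1a and 1.75 TPM in MCF10A. OAS3, which senses double-stranded RNA, was at 13.04 TPM in MCF10CA1a and 4.18 TPM in MCF10A. EPSTI1 was lower at 0.0206 TPM in MCF10CA1a and 3.93 TPM in MCF10A. Of 19 genes of MHC class I presentation HLA-B was the 1 member counted as higher, at 51.8 TPM in MCF10CA1a and 11.2 TPM in MCF10A, and the median was -0.14. HLA genes are similar in sequence and variable between people, so single values are uncertain. Of 10 complement genes 4 were higher and 2 lower. CD55, which protects cells from complement, was at 48.2 TPM in MCF10CA1a and 11.1 TPM in MCF10A. C3, the central component, was lower at 89.8 TPM in MCF10CA1a and 202 TPM in MCF10A. Of 10 immune checkpoint ligand genes 0 were higher and 1 lower, and CD274 stood at 1.82 TPM in MCF10CA1a and 1.09 TPM in MCF10A.

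The listed genes of mitosis and replication all stayed within the rule, which does not make them equal between the lines. Of 35 genes of mitosis and replication 0 were higher and 0 lower, and their median was 0.22. Of 46 genes of histone methylation and the Polycomb complexes 1 was higher and 0 lower, and the median was 0.028. The higher gene was CBX6, which encodes a Polycomb subunit, at 25.002 TPM in MCF10CA1a and 8.17 TPM in MCF10A. Of the list of cell cycle inhibitors and p53 family targets, 1 of 31 was higher and 3 were lower. That list also holds the cyclin gene CCNE2, which was 1 of the 3 lower genes. The D-type cyclin gene CCND3 was lower at 13.8 TPM in MCF10CA1a and 68.5 TPM in MCF10A, while CCND1 lay just past the rule upward.

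Histone genes were lower in 15 of 56 cases and higher in 1, with a median of -0.24. Their transcripts lack poly(A) tails and their copies are near-identical, so single values are uncertain and depend on how RNA was selected. H1-5, a linker histone gene, was at 0.731 TPM in MCF10CA1a and 450 TPM in MCF10A. It stood at 241 TPM in MCF10AT1 and 115 TPM in MCF10DCIS, so MCF10CA1a had the lowest of the 4 means. H1-5 lies at chr6:27866849-27867529 in GRCh38, next to H3C11 and H4C13. Both of these were listed at 0 in MCF10CA1a, with 7.503 and 10.9 TPM in MCF10A, and both were also listed at 0 in MCF10AT1 and MCF10DCIS. H3C12, the next gene, was at 0.486 TPM in MCF10CA1a and 42.0 TPM in MCF10A. Beyond it the levels were alike again, with H2BC17 at 194 TPM in MCF10CA1a and 196 TPM in MCF10A. In a second stretch of the cluster, H3C1 was at 1.14 TPM in MCF10CA1a and 186 TPM in MCF10A. Its neighbours H1-1, at 28.99 TPM in MCF10CA1a and 92.1 TPM in MCF10A, and H4C1, at 52.4 TPM in MCF10CA1a and 183 TPM in MCF10A, were lower by less. H2AC18 was the member counted as higher, at 36.9 TPM in MCF10CA1a and 1.09 TPM in MCF10A.

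Of 25 sterol synthesis and uptake genes that entered, 5 were lower and 0 higher; their median was -0.67, and the count of lower genes was 3 after rescaling. The lower genes CYP51A1 and MVD lie on chromosomes 7 and 16. ACAT2, which makes acetoacetyl-CoA for the pathway, was at 14.2 TPM in MCF10CA1a and 58.7 TPM in MCF10A. Of 33 glycolysis and hypoxia genes 2 were higher and 2 lower. The hexokinase gene HK2 was at 37.5 TPM in MCF10CA1a and 11.02 TPM in MCF10A. The angiogenic factor gene VEGFA was lower at 17.3 TPM in MCF10CA1a and 75.7 TPM in MCF10A. PHGDH, the first enzyme of serine synthesis, was at 49.4 TPM in MCF10CA1a and 15.9 TPM in MCF10A. ALDH1L2, a mitochondrial folate enzyme, was lower at 0.0152 TPM in MCF10CA1a and 5.12 TPM in MCF10A.

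Of the 20 genes with the largest upward differences and at least 10 TPM, several lay outside these lists. CAPS, a calcium-binding protein, was at 106 TPM in MCF10CA1a and 3.33 TPM in MCF10A. CYB5R2, a cytochrome b5 reductase, was at 31.8 TPM in MCF10CA1a and 0.791 TPM in MCF10A. The long non-coding RNA gene LINC01503 was at 28.1 TPM in MCF10CA1a and 0.175 TPM in MCF10A. Among the 20 largest downward differences, the sodium channel subunit gene SCNN1B was at 0.103 TPM in MCF10CA1a and 79.1 TPM in MCF10A. CDA, which encodes cytidine deaminase, was at 0.285 TPM in MCF10CA1a and 43.8 TPM in MCF10A. VSTM2L was at 0.204 TPM in MCF10CA1a and 147 TPM in MCF10A, and NCCRP1 at 0.152 TPM in MCF10CA1a and 77.6 TPM in MCF10A. RN7SL471P, a copy of the signal recognition particle RNA, was at 4.83 TPM in MCF10CA1a and 1286 TPM in MCF10A, with 1201 TPM in MCF10AT1 and 1173 TPM in MCF10DCIS; such copies share reads with RN7SL1.

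A few genes were near absent in 1 line and well expressed in the other. At least 10 TPM in MCF10CA1a and under 0.1 TPM in MCF10A was found for 7 genes, and the reverse for 12. TMPRSS15, the intestinal protease enteropeptidase, was at 26.2 TPM in MCF10CA1a and 0.0167 TPM in MCF10A. ANXA10, a calcium-binding annexin, was at 16.2 TPM in MCF10CA1a and 0.00855 TPM in MCF10A. The cytidine deaminase gene APOBEC3G was at 13.4 TPM in MCF10CA1a and 0.0352 TPM in MCF10A. NKX2-5, a transcription factor of the heart, was at 12.4 TPM in MCF10CA1a and 0.0447 TPM in MCF10A. Of the 7 genes, 6 were under 1 TPM in MCF10AT1 and 3 in MCF10DCIS. Both TMPRSS15 and ANXA10 belonged to the 4 genes, with CALML3 and KRT13, that reached 10 TPM in MCF10CA1a and stayed under 1 TPM in the other 3 lines. The reverse pattern held for 3 genes, H1-5, MUC1 and ANGPTL4.

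Of the 12 genes near absent in MCF10CA1a, 5 were under 1 TPM in MCF10AT1 and 9 in MCF10DCIS. COX7A1, a subunit of cytochrome c oxidase, was listed at 0 in MCF10CA1a and at 42.7 TPM in MCF10A. PYCARD, which encodes the inflammasome adaptor ASC that leads to cleavage of pro-IL-1 beta, was at 0.0109 TPM in MCF10CA1a and 12.9 TPM in MCF10A. It stood at 2.97 TPM in MCF10AT1 and 5.51 TPM in MCF10DCIS. GPAT2, an acyltransferase, was at 0.0207 TPM in MCF10CA1a and 24.8 TPM in MCF10A. SULT1E1, which inactivates oestrogens by sulphation, was at 0.0230 TPM in MCF10CA1a and 10.3 TPM in MCF10A. EMD, which encodes the nuclear membrane protein emerin, was at 0.0538 TPM in MCF10CA1a and 24.5 TPM in MCF10A. EMD lies on the X chromosome next to FLNA, an actin crosslinker, which was at 3.47 TPM in MCF10CA1a and 132 TPM in MCF10A. Both genes were expressed in MCF10AT1, at 28.9 TPM for EMD and 236 TPM for FLNA, and were low in MCF10DCIS, at 0.0750 and 2.18 TPM. The next gene on the other side of EMD, RPL10, was at 1113 TPM in MCF10CA1a and 1028 TPM in MCF10A; RPL10 was looked at for its place, after its values had been seen.

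**Figure D4:**
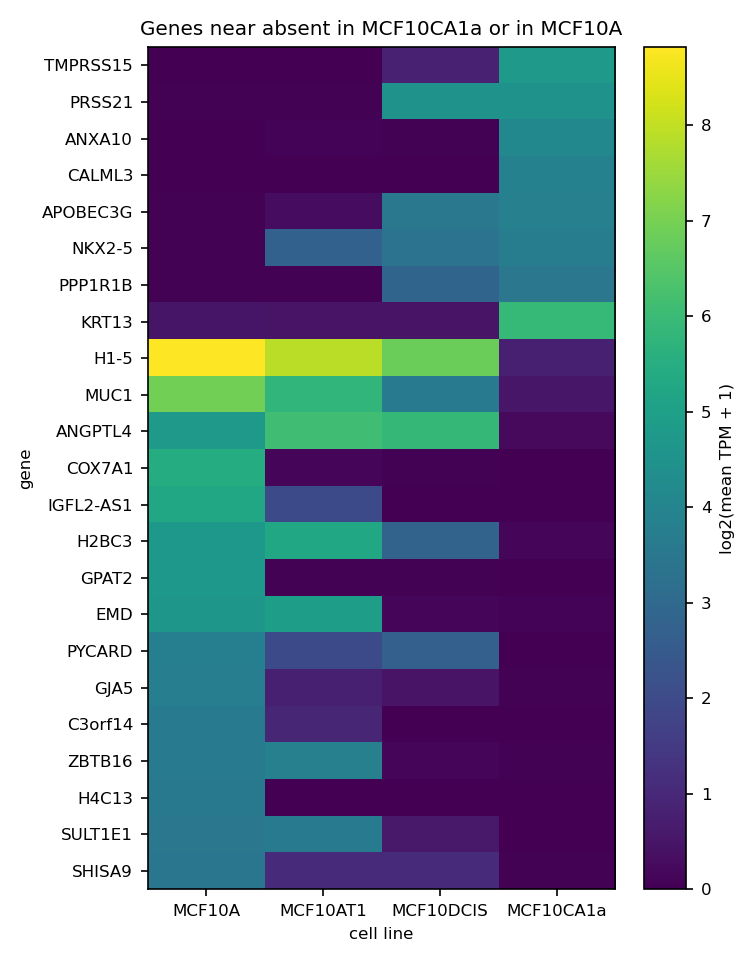
Mean log2(TPM + 1) in the 4 lines (columns) of the genes near absent in MCF10A or MCF10CA1a and of those that set MCF10CA1a apart from all 3 other lines (rows). TMPRSS15, ANXA10, CALML3 and KRT13 are bright in the MCF10CA1a column alone, whereas H1-5, MUC1 and ANGPTL4 are dark there alone.

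Genes past a difference of 1.5 also occurred as runs of neighbours. Among 8877 genes with at least 5 TPM and a position, 589 were past 1.5, and 9 runs of at least 3 successive genes in 1 direction held 34 of them. The runs included the CXCL chemokines on chromosome 4, the small proline-rich genes with S100A9 on chromosome 1, the kallikreins on chromosome 19, the keratins KRT15, KRT19, KRT14 and KRT16 on chromosome 17, metallothioneins on chromosome 16 and both histone stretches on chromosome 6. Members of 2 further runs were singled out after their values had been seen. On chromosome 22, APOBEC3F was at 8.02 TPM in MCF10CA1a and 0.0106 TPM in MCF10A, and its neighbour APOBEC3C at 43.5 TPM in MCF10CA1a and 13.9 TPM in MCF10A; these deaminase genes are similar in sequence. On chromosome 16, GDPD3 was at 4.11 TPM in MCF10CA1a and 56.5 TPM in MCF10A, and the ERK1 gene MAPK3 beside it was at 10.0 TPM in MCF10CA1a and 34.9 TPM in MCF10A.

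Genes of some chromosomes were displaced together. On the rescaled scale the median difference was -0.52 over 631 genes on chromosome 7, -0.51 over 431 on chromosome 8 and -0.53 over 655 on chromosome 16. It was 0.57 over 526 genes on chromosome 9, 0.35 on chromosome 10, 0.32 on chromosome 3, 0.25 on chromosome 17 and 0.23 on chromosome 2. The share of genes below 0 was 84.0% on chromosome 7, 83.3% on chromosome 8 and 86.3% on chromosome 16, and 13.5% on chromosome 9. Chromosomes 7, 8 and 16 carried 1717 of 12513 positioned genes and 307 of the 985 lower ones (31.2%).

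**Figure D5:**
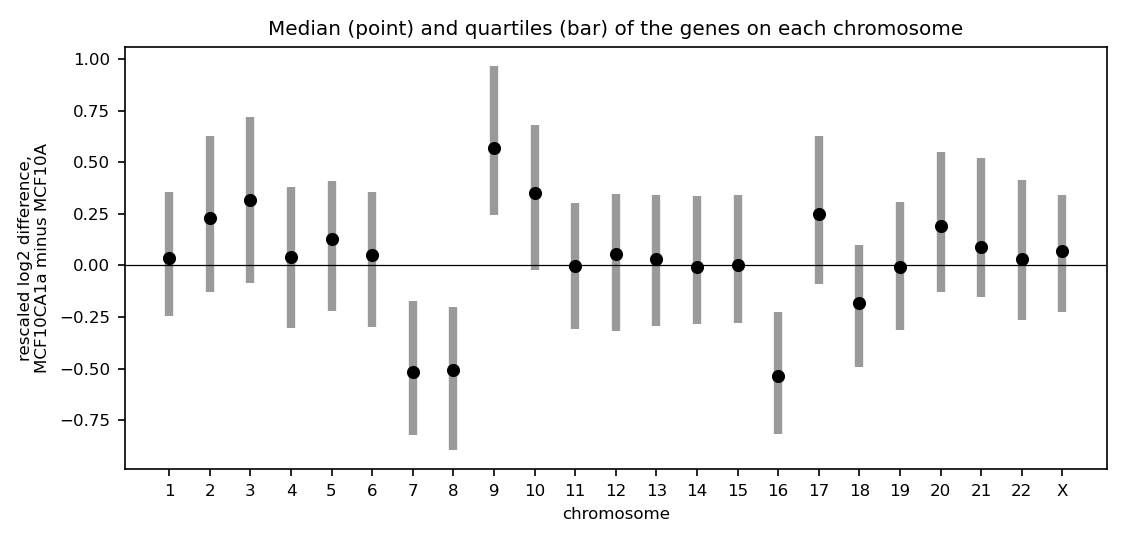
Median (point) and quartiles (bar) of the rescaled log2 difference, MCF10CA1a minus MCF10A, over the genes of each chromosome. Chromosomes 7, 8 and 16 have medians between -0.53 and -0.51 with upper quartiles below 0, and chromosome 9 has a median of 0.57 with its lower quartile above 0.

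In windows of 10 Mb with at least 20 genes, 17 of 231 had a median of at most -0.5, and 16 of these lay on chromosomes 7, 8 and 16. A median of at least 0.5 was found in 22 windows, 7 of them on chromosome 9, 6 on chromosome 2, 5 on chromosome 3, 3 on chromosome 10 and 1 on chromosome 17. All windows measured on chromosomes 7, 8 and 16 had medians below 0 and all on chromosome 9 above 0, whereas chromosomes 2, 3 and 17 were displaced in part. On chromosome 2 the 8 windows before 90000001 had medians from 0.49 to 0.66, and the window from 90000001 to 100000000 had -0.080. On chromosome 3 the windows from 100000001 onward had medians from 0.40 to 0.73, and those before 60000001 from -0.083 to 0.19. The single such window of chromosome 17, from 10000001 to 20000000 (GRCh38), had the highest median of all, 0.96, with 34 of 71 genes higher and 1 lower. ALDH3A1, TRIM16L and the pseudogene USP32P1 had its largest differences. TRIM16L was at 40.0 TPM in MCF10CA1a and 10.99 TPM in MCF10A. The lowest median, -0.83, belonged to the window from 80000001 to 90000000 on chromosome 8. It holds the carbonic anhydrase gene CA2, at 14.6 TPM in MCF10CA1a and 120 TPM in MCF10A. TPD52, also there, was at 34.0 TPM in MCF10CA1a and 76.6 TPM in MCF10A. Several genes that were higher ran against their chromosome, among them PLAT and MYC on chromosome 8 and HAS3 and NQO1 on chromosome 16. Other higher genes had the direction of their chromosome, among them TXN and LINC01503 on chromosome 9 and AKR1C1 on chromosome 10.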

How the data were processed

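RNA-seq libraries of MCF10CA1a and MCF10A, 3 each per the labels, were compared. The authors deposited TPM values as 1 mean per gene and line, with no values per library. The tools named in the submitters' processing notes include STAR and edgeR, and the build named there is hg38. Not given in the sources used here are their versions, how TPM was computed, the annotation and whether strand was used. Each column summed to 1000000.

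Computed here were log2(TPM + 1) differences, MCF10CA1a minus MCF10A, over genes with at least 1 TPM in either line, as deposited and after rescaling (Python 3.11.15, pandas 2.3.3). The means allow no test. The members of 44 gene lists (1106 genes in the table, 818 that entered) and the marker lists were chosen with earlier results of these data known. Named genes are list members, the 20 largest differences each way with at least 10 TPM, genes near absent in 1 line, the 3 largest of a genome window, those nearest a limit, and HRAS, CDH1, VIM, KRT5, KRT14 and TP63. Positions are from GENCODE 29 (GRCh38), or RefSeq where absent there, for 12683 of the 12747 genes. The calculation was tested on simulated data. Alternatives were a pseudocount of 0.1, no filter, a filter of 5 TPM, rescaling, median-of-ratios scaling and quantile normalization.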

Additional observations from a re-analysis of the deposited data

How the results depend on the processing

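The count of genes higher in MCF10CA1a was 783, and it became 1189 on the rescaled scale and 502 where a gene needed 5 TPM. Over all 6 alternatives the count of lower genes lay between 684 and 1327, against 936. The median difference of all genes was -0.082, and it was 0.0434 on the rescaled scale, -0.09336 at a minimum of 5 TPM, -0.09258 with a pseudocount of 0.1, 3.539e-05 with median-of-ratios scaling, 0 without a filter and 0 with quantile normalization. The share of higher genes among those past the rule was 45.5%, so the larger group was the lower one. This reversed with rescaled TPM (54.5%), median-of-ratios scaling (51.9%) and quantile normalization (51.6%). The share was 42.3% at a minimum of 5 TPM and 45.1% with a pseudocount of 0.1. Counts within gene lists depended on these choices as well. With a pseudocount of 0.1 the IL-1 family had 6 higher and 3 lower genes, against 5 and 1. Lower genes among metalloproteinases and inhibitors then numbered 6, against 3. Chemokines stayed at 5 higher and 1 lower, and glucocorticoid receptor targets at 0 and 10. Of 308 named or listed genes past a difference of 1, 0 changed direction under any alternative that kept them. In all, 7 fell short of 1 under at least 1 alternative (among them BMP1, ESRP2, H2BC9, LSS, RALA and TRIM22). The filter of 5 TPM kept 255 of the 308 and rescaling 307. A change of filter leaves the difference of a kept gene as it is, so it could not move these genes. A change of pseudocount cannot reverse the sign of a difference, and the scalings moved the median of all genes by far less than 1. That 0 genes changed direction was therefore nearly fixed in advance and is no measure of robustness. Leaving out each library could not be run on means. No paired analysis was possible because the deposited columns are means that carry no replicate number. With depth unknown, values near 0 TPM have no stated precision.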
